A study of Sus scrofa with 21 samples.

Results

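The scar that replaces infarcted heart muscle is built from fibrillar collagen, together with proteins that organise the collagen without being its main structural mass. Matricellular proteins are secreted into the matrix, where they bind cells, collagens and growth factors, and they are scarce in healthy adult myocardium and abundant where tissue is injured. Crosslinking enzymes such as lysyl oxidase join collagen and elastin chains covalently, which makes the matrix stiff and hard to degrade. In the infarcted heart these proteins are known mainly as products of activated fibroblasts and, for osteopontin, also of macrophages.

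The genes described here were SPP1, TNC, POSTN, THBS2, CILP, FN1, AEBP1, LOX and PTN, which are 9 of the 7516 genes named on the array. A probe set was counted as a member when its platform annotation gave one of these symbols or, where the platform gave none, when the authors' match to the human genome did. This found 18 of the 24123 probe sets. Expression was kept for all 18, but a test across the array was run only for the 12180 probe sets above 3 on the log2 scale in at least 10 arrays, the brightness filter of the study's methods. The filter was passed by 9 member probe sets, from 8 genes: 1 each for SPP1, POSTN, THBS2, CILP, FN1, AEBP1 and PTN, and 2 for LOX. TNC had 1 probe set, which failed the filter. IC held 9 arrays in all, so no probe set could pass through IC alone.

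Gene expression was measured in 21 myocardial samples with an Affymetrix porcine array, a chip that carries a set of short probes for each transcript. Samples came from infarct core (IC, the middle of the left ventricular scar) and remote myocardium (RM, the interventricular septum outside the infarct) of 9 female Landrace x Large White pigs in which a marginal branch of the circumflex artery had been ligated, with 3 pigs for each stage, 1, 4 or 6 weeks after infarction (post-MI; 6, 30 and 45 days in the labels). Control myocardium (CM) came from 3 other pigs of the same sex and cross, which the labels call sham-operated at 0 days and the study's methods call healthy. No control was labelled with the days of an infarct group, so time and infarction cannot be told apart in comparisons with CM. IC and RM of a stage came from the same pigs, and each pig gave 1 array per region, so n = 3 in every group. Values of single arrays are listed in the order of pigs 7, 8 and 9 at 1 week, 18, 20 and 22 at 4 weeks and 2, 3 and 5 at 6 weeks, and of pigs 30, 31 and 33 for CM. RM was septum while the scar lay in the left ventricular wall, so region and infarction cannot be told apart in IC against RM, and all comparisons with CM share the same 3 CM arrays, whose ventricular region is not given in the sources used here.

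All values are log2 expression after robust multi-array average (RMA) normalization, so a difference of 1 is a doubling of signal. Values of different probe sets were not set against each other, because probes differ in brightness. Array medians lay between 2.95 and 3.12. Mean expression of 11 cardiomyocyte markers was 10.33 to 11.51 in IC, 11.73 to 11.78 in RM and 11.61 to 11.73 in CM, so heart muscle transcripts were bright on every array. Bacterial labelling controls averaged 3.34 to 4.93 in IC at 1 week, 5.22 to 5.76 at 4 weeks and 4.56 to 5.5 at 6 weeks. They averaged 4.35 to 4.73 in CM. The part of these differences in the results, those between scar stages included, was not tested. The control array of pig 33 was the highest of the 3 controls for all 9 genes, and values without it are given where they moved a result.

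Every one of the 9 genes was far brighter in scar than in control heart at all 3 stages, and on the tested probe sets and that of TNC no IC array overlapped a CM array, where 30.2%, 28.3% and 24.4% of all tested probe sets lay wholly above CM at the 3 stages. At 1 week post-MI the tested probe sets were 6.68 to 68.2 times as bright in IC as in CM, at 4 weeks 14.1 to 79.6 times and at 6 weeks 5.95 to 53.7 times. By limma, a linear model with a shared variance estimate, the 9 tested probe sets passed an adjusted p of 0.05 at each stage. Over all tested probe sets, the share called higher in IC was 26%, 25.3% and 21% at successive stages. The median log2 FC (fold change, IC over CM) of the 9 was 4.73 at 1 week, 5.28 at 4 weeks and 4.84 at 6 weeks, beside -0.06, -0.06 and -0.08 over all tested probe sets. Counting all 18 probe sets with no filter, 12 were higher and 1 was lower at 1 week, 13 were higher and 1 was lower at 4 weeks, and 13 were higher and none was lower at 6 weeks, where the array as a whole had 17.4%, 17.4% and 14.5% called higher and 19.5%, 19.9% and 15.7% called lower.

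**Figure D1:**
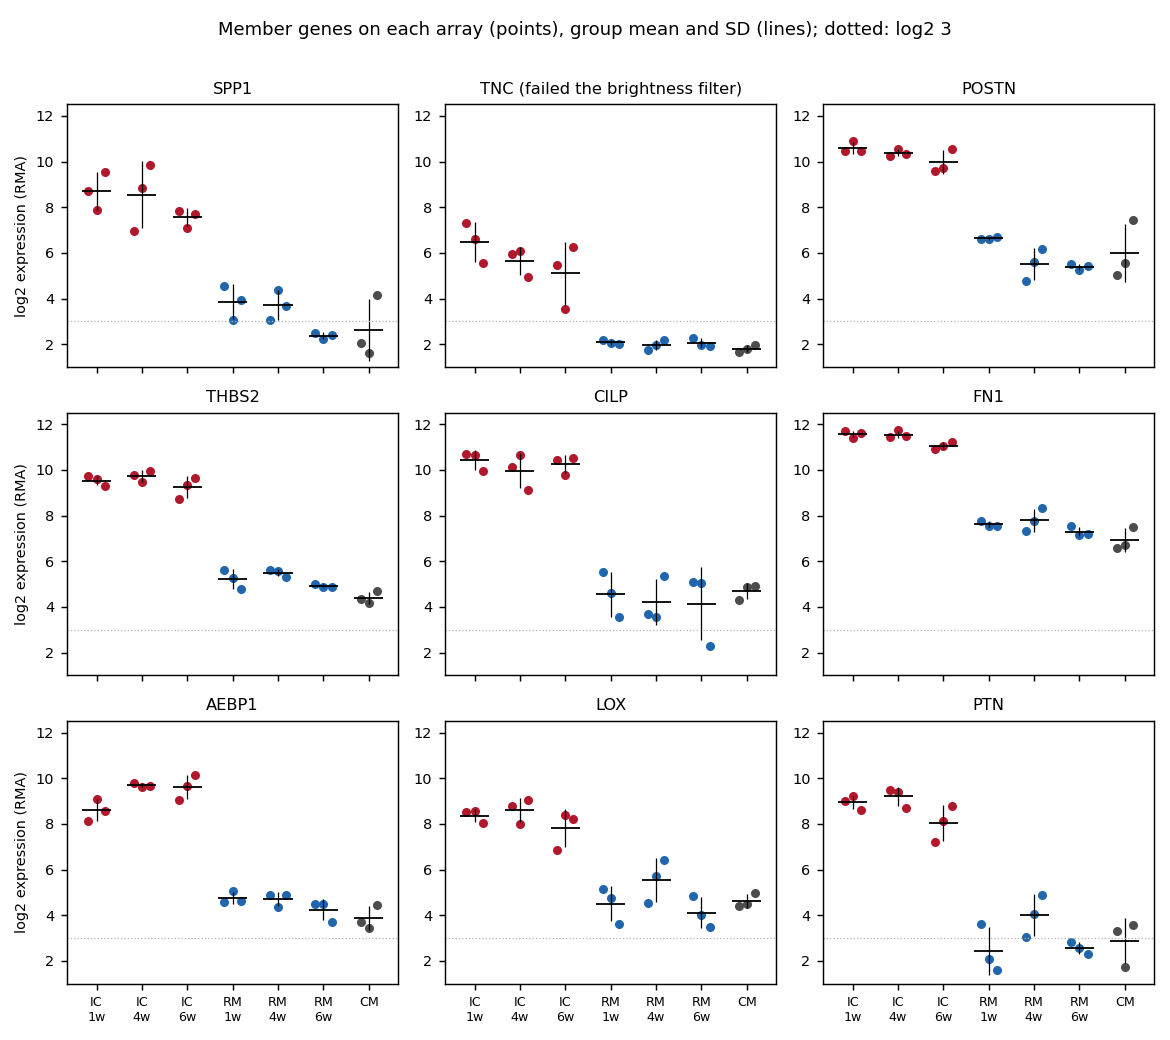
Log2 expression of the brightest probe set of each of the 9 genes (vertical axis) on every array, with groups on the horizontal axis (IC and RM by weeks after infarction, then CM) and lines for the mean and SD of 3 arrays. The IC points lie above all RM and CM points in every panel; for TNC the IC arrays run between 3.55 and 7.31, and only these exceed 3.

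SPP1 encodes osteopontin, a secreted phosphoprotein that binds integrins and CD44 and is made by macrophages as well as fibroblasts. It measured 8.72, 7.86 and 9.53 in IC at 1 week, 6.95, 8.83 and 9.86 at 4 weeks and 7.85, 7.10 and 7.72 at 6 weeks, against 2.07, 1.61 and 4.16 in CM. The lowest scar array was thus well above the highest control, although a single control (pig 33) stood apart from the other 2. Its log2 FC over CM was 6.09 at 1 week (SE 0.67, adjusted p = 7.69e-07), 5.93 at 4 weeks and 4.94 at 6 weeks. Without control pig 33 the same values were 6.86, 6.70 and 5.71, and at 4 weeks 6.73 without pig 18 and 5.27 without pig 22.

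TNC encodes tenascin-C, a large glycoprotein that loosens cell adhesion and is nearly absent from the adult heart. Its probe set measured 7.31, 6.59 and 5.56 in IC at 1 week, 5.94, 6.07 and 4.96 at 4 weeks and 5.48, 3.55 and 6.26 at 6 weeks, against 1.65, 1.79 and 1.96 in CM. RM ran from 1.75 to 2.28, close to CM. The 9 scar arrays were the only arrays above 3, which is why TNC failed a filter that asks for 10. In the fit with no filter, the log2 FC of IC over CM was 4.69 at 1 week (SE 0.50, adjusted p = 8.36e-07), 3.86 at 4 weeks and 3.30 at 6 weeks.

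POSTN encodes periostin, a fasciclin-domain protein of activated fibroblasts that binds collagen and fibronectin. It measured 10.46, 10.90 and 10.44 in IC at 1 week, 10.25, 10.55 and 10.33 at 4 weeks and 9.60, 9.73 and 10.57 at 6 weeks, against 5.02, 5.56 and 7.43 in CM. The scar arrays differed little among themselves, and the control arrays spread more widely (SD 1.26), again through pig 33. By stage, the log2 FC was 4.60 (SE 0.44), 4.37 and 3.96, and it was 5.31, 5.08 and 4.67 without that control.

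THBS2 encodes thrombospondin-2, which inhibits vessel growth and whose loss in mice disturbs collagen fibrils. It measured 9.71, 9.59 and 9.30 in IC at 1 week, 9.76, 9.46 and 9.96 at 4 weeks and 8.71, 9.34 and 9.65 at 6 weeks, against 4.34, 4.15 and 4.68 in CM. Arrays within a group lay close together, with an SD of 0.21 at 1 week and 0.27 in CM. The log2 FC was 5.15 at 1 week (adjusted p = 1.78e-10), 5.34 at 4 weeks (9.46e-11) and 4.84 at 6 weeks (5.1e-10), each with an SE of 0.23.

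CILP, the cartilage intermediate layer protein, was described in articular cartilage and binds TGF-beta and insulin-like growth factor. It measured 10.70, 10.65 and 9.95 in IC at 1 week, 10.14, 10.65 and 9.12 at 4 weeks and 10.44, 9.78 and 10.54 at 6 weeks, against 4.30, 4.85 and 4.93 in CM. Scar and control each kept to a narrow range, while RM ran from 2.28 to 5.51. CILP had a log2 FC of 5.74 (SE 0.65), 5.28 and 5.56 by stage. Of 7 cartilage and bone markers on the array none passed the filter, and in the fit with no filter 1, 1 and 1 were called higher and 3, 3 and 2 lower in IC at the 3 stages. Of all 24123 probe sets, 17.4%, 17.4% and 14.5% were called higher and 19.5%, 19.9% and 15.7% lower. The higher marker was COMP, the cartilage oligomeric matrix protein of the thrombospondin family, which measured 4.15, 4.74 and 2.87 in IC at 1 week, 8.97, 8.95 and 7.36 at 4 weeks and 7.21, 5.45 and 8.48 at 6 weeks, against 1.23, 1.86 and 1.89 in CM. Its log2 FC was 2.26 (SE 0.58, adjusted p = 0.00474), 6.77 and 5.39, every RM array was at 2.03 or lower, and COMP was named after its values were seen. The mean of the other 6 markers was 1.58 to 1.73 in IC, 1.67 to 2.06 in RM and 1.98 to 2.07 in CM.

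FN1 encodes fibronectin, the adhesive glycoprotein whose fibrils serve as a template for new collagen. Its brightest probe set measured 11.68, 11.41 and 11.61 in IC at 1 week, 11.42, 11.73 and 11.48 at 4 weeks and 10.93, 11.03 and 11.22 at 6 weeks, against 6.56, 6.70 and 7.51 in CM. The 3 scar arrays at 6 weeks were below all earlier scar arrays. For FN1 the log2 FC was 4.64 (SE 0.24, adjusted p = 3.84e-10), 4.62 and 4.13.

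LOX, lysyl oxidase, is the copper enzyme that oxidises lysines of collagen and elastin so that chains can crosslink. Its brightest probe set, named only by the authors' match, measured 8.50, 8.55 and 8.03 in IC at 1 week, 8.80, 7.99 and 9.03 at 4 weeks and 6.86, 8.38 and 8.22 at 6 weeks, against 4.41, 4.51 and 4.95 in CM. Its other tested probe set, named by the platform, measured 4.75 to 7.93 in IC and 3.20 to 4.25 in CM, with the scar array of pig 2 at 6 weeks the lowest on both. The log2 FC of the brightest was 3.74 (SE 0.49), 3.98 and 3.20. That of the other was 2.74 (SE 0.58), 3.82 and 2.57, and the 6-week value became 3.30 without pig 2.

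AEBP1 encodes a secreted collagen-binding protein, ACLP, and, from the same gene, a shorter protein first described as a transcriptional repressor. It measured 8.13, 9.10 and 8.55 in IC at 1 week, 9.78, 9.63 and 9.65 at 4 weeks and 9.05, 9.65 and 10.14 at 6 weeks, against 3.71, 3.43 and 4.45 in CM. The scar arrays at 4 weeks were all above those at 1 week. The log2 FC over CM was 4.73 (SE 0.31), 5.82 and 5.75.

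PTN encodes pleiotrophin, a heparin-binding growth factor held in the matrix that binds syndecans. It measured 9.00, 9.20 and 8.61 in IC at 1 week, 9.49, 9.41 and 8.70 at 4 weeks and 7.22, 8.12 and 8.77 at 6 weeks, against 3.30, 1.75 and 3.59 in CM. The control arrays lay on both sides of the filter limit of 3, and every scar array was above 7. The log2 FC was 6.06 (SE 0.54, adjusted p = 9.41e-08), 6.32 and 5.15, and PTN ranked 9, 6 and 14 by log2 FC among the 12180 probe sets tested at the 3 stages.

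**Figure D2:**
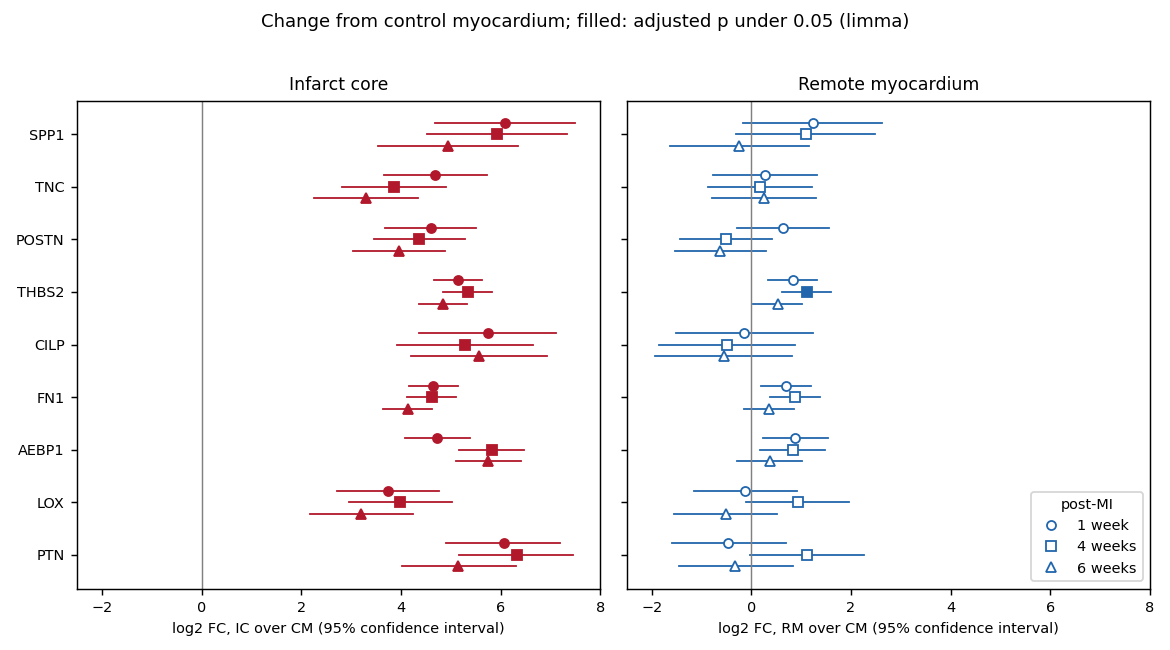
Log2 FC over CM (horizontal axis) with 95% confidence intervals for the brightest probe set of each gene, in IC on the left and RM on the right; markers give the stage, and filled markers an adjusted p under 0.05. In IC the values run from 3.20 for LOX at 6 weeks to 6.32 for PTN at 4 weeks, and in RM only THBS2 at 4 weeks, at 1.11, is filled.

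The same pigs gave scar and remote tissue, and within every pig each gene was brighter in the scar. The difference IC minus RM over the 9 pigs ran from 3.88 to 6.17 for SPP1, 1.58 to 5.13 for TNC, 3.75 to 5.49 for POSTN and 3.73 to 4.78 for THBS2. It ran from 3.76 to 8.26 for CILP, 3.15 to 4.09 for FN1, 3.57 to 6.44 for AEBP1, 2.03 to 4.73 for LOX and 3.82 to 7.13 for PTN. These ranges are of the brightest probe set of each gene. On them THBS2 and FN1 differed little from pig to pig, while CILP, TNC and PTN spread over a range of more than 3 on the log2 scale. On the other tested LOX probe set the difference ran from 0.59, in pig 2, to 3.82. In a limma fit with pig as a block, the 9 tested probe sets were higher in IC at each stage, beside 24.7%, 25.5% and 22.6% of all tested probe sets by stage. As groups, IC and RM did not overlap for any of them, which held in the same direction for 27.2%, 26.9% and 24.2% of all. Their median log2 FC was 3.97, 4.84 and 4.58, and the highest adjusted p was 0.00349, for the dimmer LOX probe set at 6 weeks. CILP at 6 weeks was 6.12 (SE 0.68), or 5.04 without pig 5, whose remote array at 2.28 was the lowest for this gene. CILP was 6.80 without pig 3 at this stage, and at 4 weeks it was 5.77, 6.78 without pig 22 and 5.11 without pig 20.

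**Figure D3:**
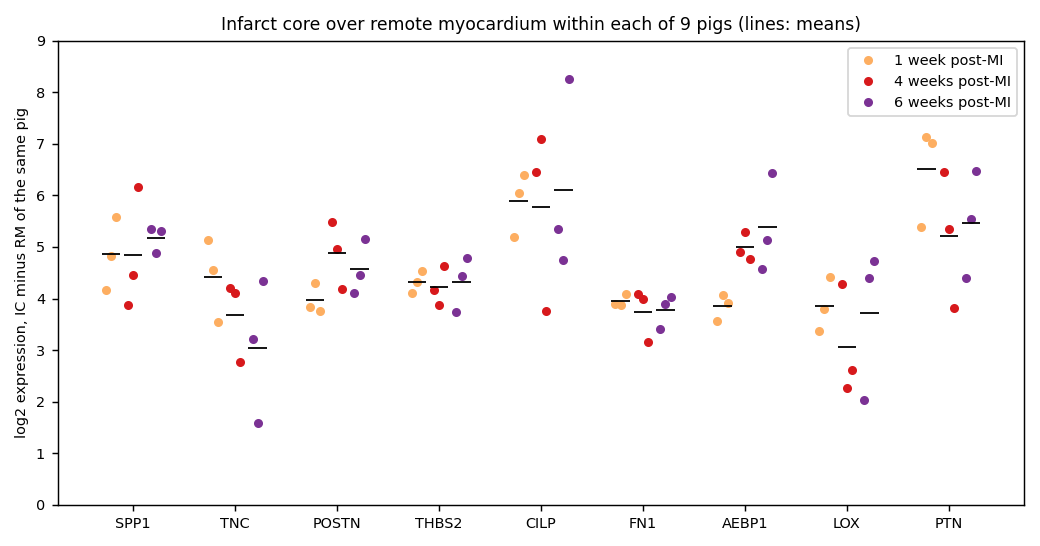
Difference in log2 expression between IC and RM of the same pig (vertical axis) for the brightest probe set of each gene, with 3 pigs per stage (colours) and lines for the mean. Every point is above 0; THBS2 stays between 3.73 and 4.78, while CILP reaches from 3.76 to 8.26.

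Remote myocardium differed far less from CM. THBS2 was the only gene called, at 4 weeks, where RM measured 5.60, 5.57 and 5.32 against 4.34, 4.15 and 4.68 in CM, with no overlap. Its log2 FC was 1.11 (SE 0.23, adjusted p = 0.0259 by limma), and of all tested probe sets in this comparison 1.08% were called, 0.616% as higher, and 14.9% had RM wholly above CM. This call was lost without any 1 of the RM arrays of pigs 18, 20 or 22 (adjusted p = 0.0668, 0.118 and 0.0632) or control pigs 30 or 31 (0.0747 and 0.113), with a log2 FC of 0.99 to 1.19. THBS2 measured 5.61, 5.27 and 4.77 in RM at 1 week (log2 FC 0.83, adjusted p = 0.0925) and 4.99, 4.89 and 4.88 at 6 weeks (0.53, adjusted p = 0.352), above every CM array at both stages. At 1 week 0 of 9 member probe sets were called, beside 1.13% of all tested probe sets (0.509% higher), and 3 of 9 had an unadjusted p under 0.05. The same 3, those of THBS2, FN1 and AEBP1, had RM wholly above CM, as did 12% of all. At 6 weeks 0 of 9 were called, beside 0.197% (0.0739% higher). THBS2, 1 of 9, had an unadjusted p under 0.05. It also had no overlap with CM, where 9.1% of all lay wholly above CM. At 4 weeks 4 of 9 had an unadjusted p under 0.05, those of THBS2, FN1 and AEBP1 and the dimmer tested LOX probe set. The share of all tested probe sets with an unadjusted p under 0.05 was not counted at any stage.

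Of the other genes, CILP, LOX and PTN had RM arrays both below and above the CM range on their brightest probe sets. SPP1, TNC, FN1 and AEBP1 had some above it and none below, and POSTN had some below it and none above. FN1 measured 7.78, 7.54 and 7.54 in RM at 1 week, 7.33, 7.74 and 8.33 at 4 weeks and 7.52, 7.14 and 7.20 at 6 weeks, against 6.56, 6.70 and 7.51 in CM. At 1 week all 3 remote arrays were above CM, with a log2 FC of 0.69 (adjusted p = 0.167). At 4 weeks the log2 FC was 0.87 (adjusted p = 0.0778), and without control pig 33 it was 1.17 (0.0298) at 4 weeks and 0.99 (0.0453) at 1 week. Without the RM array of pig 18, FN1 at 4 weeks was 1.11 (0.036).

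LOX and PTN had their highest remote values at 4 weeks in pigs 20 and 22. LOX measured 4.52, 5.73 and 6.42 in RM of pigs 18, 20 and 22, against 4.41, 4.51 and 4.95 in CM, and PTN measured 3.04, 4.06 and 4.88, against 3.30, 1.75 and 3.59. The array of pig 18 lay within the CM range for both genes. The log2 FC was 0.93 for LOX on this brightest probe set (95% confidence interval -0.10 to 1.96) and 1.11 for PTN (-0.03 to 2.26). The other tested LOX probe set, named by the platform, gave 1.27 (0.05 to 2.48) and was not called by limma (adjusted p = 0.282). SPP1 measured 4.56, 3.04 and 3.95 in RM at 1 week, against 2.07, 1.61 and 4.16 in CM, with a log2 FC of 1.23 (-0.17 to 2.63) that became 2.01 without control pig 33 and did not pass the test in either case. For CILP the interval in RM was -1.51 to 1.23 at 1 week, and for POSTN it was -1.53 to 0.30 at 6 weeks. Such intervals still allow changes of 1 or more on the log2 scale.

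The order of group means had the same upper part for all 9 genes, with the 3 IC means above the 3 RM means and the CM mean. Below them, no pair of neighbouring means was called. POSTN had its CM mean of 6.01 between RM at 1 week (6.63) and RM at 4 weeks (5.49), and CILP had its CM mean of 4.69 above all RM means.

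**Figure D4:**
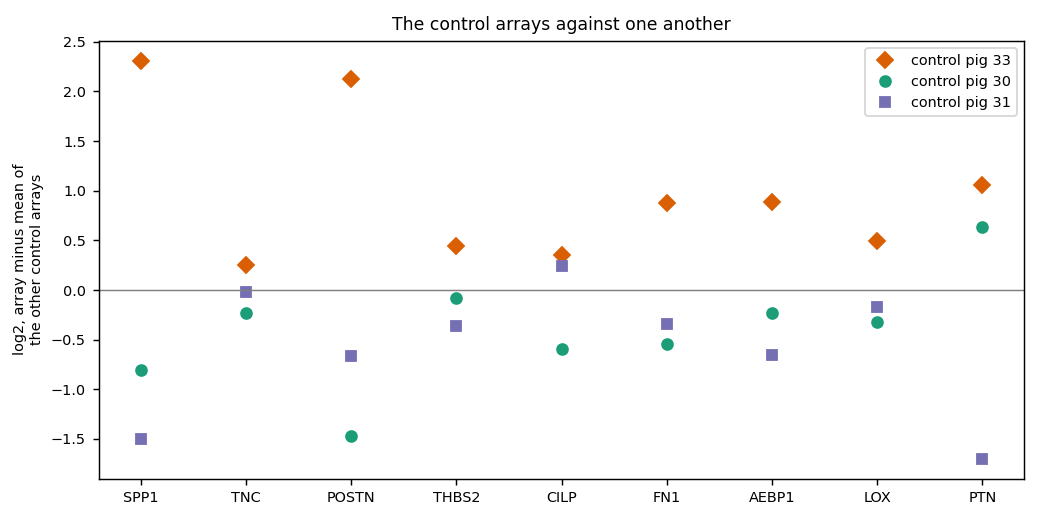
Log2 expression of each control array minus the mean of the other 2 (vertical axis) for the brightest probe set of each gene, by control pig. Pig 33 is the highest in all 9 genes, by 2.31 for SPP1, 2.13 for POSTN and 0.25 for TNC.

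The 3 control arrays were not alike for these genes: pig 33, the highest for all 9, was the highest for 36.7% of all tested probe sets. Its excess over the mean of the other 2 controls was 2.31 for SPP1, 2.13 for POSTN, 1.06 for PTN, 0.89 for AEBP1 and 0.88 for FN1, and 0.25 to 0.49 for the rest. The mean of 9 fibroblast markers was 6.86 on this array, against 6.30 and 6.44 on those of pigs 30 and 31. Macrophage markers did not stand out on it, with 3.68 against 3.82 and 3.57, and the part of the fibroblast markers in the result was not tested. In other groups the remote tissue of pig 2 at 6 weeks was the highest for 8 of 9 genes (34.6% of all tested probe sets), and the scar of pig 5 at 6 weeks (29.8%) and the remote tissue of pig 7 at 1 week (35.6%) and pig 22 at 4 weeks (32.7%) were the highest for 7 of 9. The scar of pig 2 was the lowest at 6 weeks for 6 of 9.

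Between stages the scar levels moved much less than they differed from CM. AEBP1 was the only gene called. Its log2 difference was 1.09 at 4 weeks over 1 week (SE 0.31, adjusted p = 0.0305), where the groups did not overlap (14.1% of all tested probe sets lay wholly higher), and 1.02 at 6 weeks over 1 week (adjusted p = 0.0336), where the lowest 6-week array, at 9.05, lay just under the highest 1-week array, at 9.10 (13.7% of all lay wholly higher). Over all tested probe sets, 5.57% were called higher at 4 weeks over 1 week and 6.64% at 6 weeks over 1 week. The 4-week call was lost without the IC arrays of pigs 7, 9, 18 or 22, and the 6-week call without those of pigs 3, 5, 7 or 9, with adjusted p of 0.0606 to 0.145. Both were also lost when only the 2 groups compared entered the fit (adjusted p = 0.053 and 0.0923).

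Most other scar genes had lower means at 6 weeks than at 1 week, and none passed the test. The log2 difference was -1.15 for SPP1 (95% confidence interval -2.55 to 0.25), -1.39 for TNC with no filter (adjusted p = 0.0804), -0.90 for PTN, -0.64 for POSTN, -0.54 for LOX, -0.51 for FN1 and -0.30 for THBS2, and it was -0.18 for CILP. SPP1 and FN1 had all 3 arrays at 6 weeks below all 3 at 1 week, as had 18.2% of all tested probe sets. For SPP1 the highest 6-week array, at 7.85, lay just under the lowest 1-week array, at 7.86. At 6 weeks over 4 weeks 0 of 9 member probe sets were called in IC, beside 3.88% of all tested probe sets. Of the 9, 3 had an unadjusted p under 0.05, a share not counted over all tested probe sets.

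In RM 0 of 9 were called between any 2 stages, beside 1.59% of all tested probe sets at 4 weeks over 1 week, 0.181% at 6 weeks over 1 week and 0.632% at 6 weeks over 4 weeks. An unadjusted p under 0.05 was reached by 4, 2 and 5 of the 9, a share not counted over all tested probe sets. POSTN was an example, at 6.62, 6.59 and 6.69 in RM at 1 week, 4.75, 5.58 and 6.15 at 4 weeks and 5.49, 5.26 and 5.41 at 6 weeks. Its remote arrays at 1 week were above all later ones, with log2 differences of -1.14 at 4 weeks (adjusted p = 0.172) and -1.25 at 6 weeks (0.204) over 1 week, and 13.8% and 12.1% of all tested probe sets lay wholly lower in these comparisons.

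Whether the scar excess over remote tissue itself changed with stage was tested as the difference of the paired differences. No tested member probe set was called, beside 0.0657% of all tested probe sets at 4 weeks over 1 week, 0.32% at 6 weeks over 1 week and 0% at 6 weeks over 4 weeks. An unadjusted p under 0.05 was reached by 2, 1 and 0 of the 9, a share not counted over all tested probe sets. The values farthest from 0 were 1.53 for AEBP1 at 6 weeks over 1 week (SE 0.40, adjusted p = 0.137) and -1.31 for PTN at 4 weeks over 1 week (SE 0.72, adjusted p = 0.547). The interval of the AEBP1 value was 0.64 to 2.42.

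Several genes were covered by more than 1 probe set, and these did not all behave alike. A further FN1 probe set (Ssc.5580.1.S1_at) measured 3.87 to 5.42 in IC, 0.67 to 1.53 in RM and 0.75 to 1.48 in CM, and a further POSTN probe set (Ssc.7969.1.A1_at) measured 2.12 to 4.92 in IC, 0.26 to 0.84 in RM and 0.28 to 0.59 in CM. Both failed the filter, and on both the scar arrays were separate from all others. The dim AEBP1 probe set (Ssc.11603.1.S1_at) measured 2.61, 2.59 and 2.52 in IC at 1 week, 3.42, 3.84 and 3.80 at 4 weeks and 3.00, 2.81 and 3.35 at 6 weeks, against 2.38, 2.56 and 2.45 in CM. Scar and control overlapped at 1 week and were apart later. Its excess of IC over RM was called higher at 4 weeks than at 1 week in the fit with no filter, where 0.344% of all probe sets were called. In the same limma fit its scar level was called lower at 6 weeks than at 4 weeks (-0.64, adjusted p = 0.0424), beside 1.51% of all probe sets called lower. The bright AEBP1 probe set gave -0.08 for these stages in the main limma fit (adjusted p = 0.924).

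The remaining probe sets of CILP, FN1, LOX and PTN were never above 3 on any array. The CILP one (Ssc.14477.1.A1_at) ran from 2.14 to 2.59 in IC, 2.46 to 2.98 in RM and 2.45 to 2.98 in CM, and with no filter it was called lower in IC at 1 week (log2 FC -0.47, adjusted p = 0.02) and at 4 weeks (-0.41, 0.0405), opposite to the bright CILP probe set. The other 4 (2 of FN1 and 1 each of LOX and PTN) had log2 FC of IC over CM between -0.23 and 0.26 and were not called. Which transcript or strand each probe set measures was not analysed here.

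**Figure D5:**
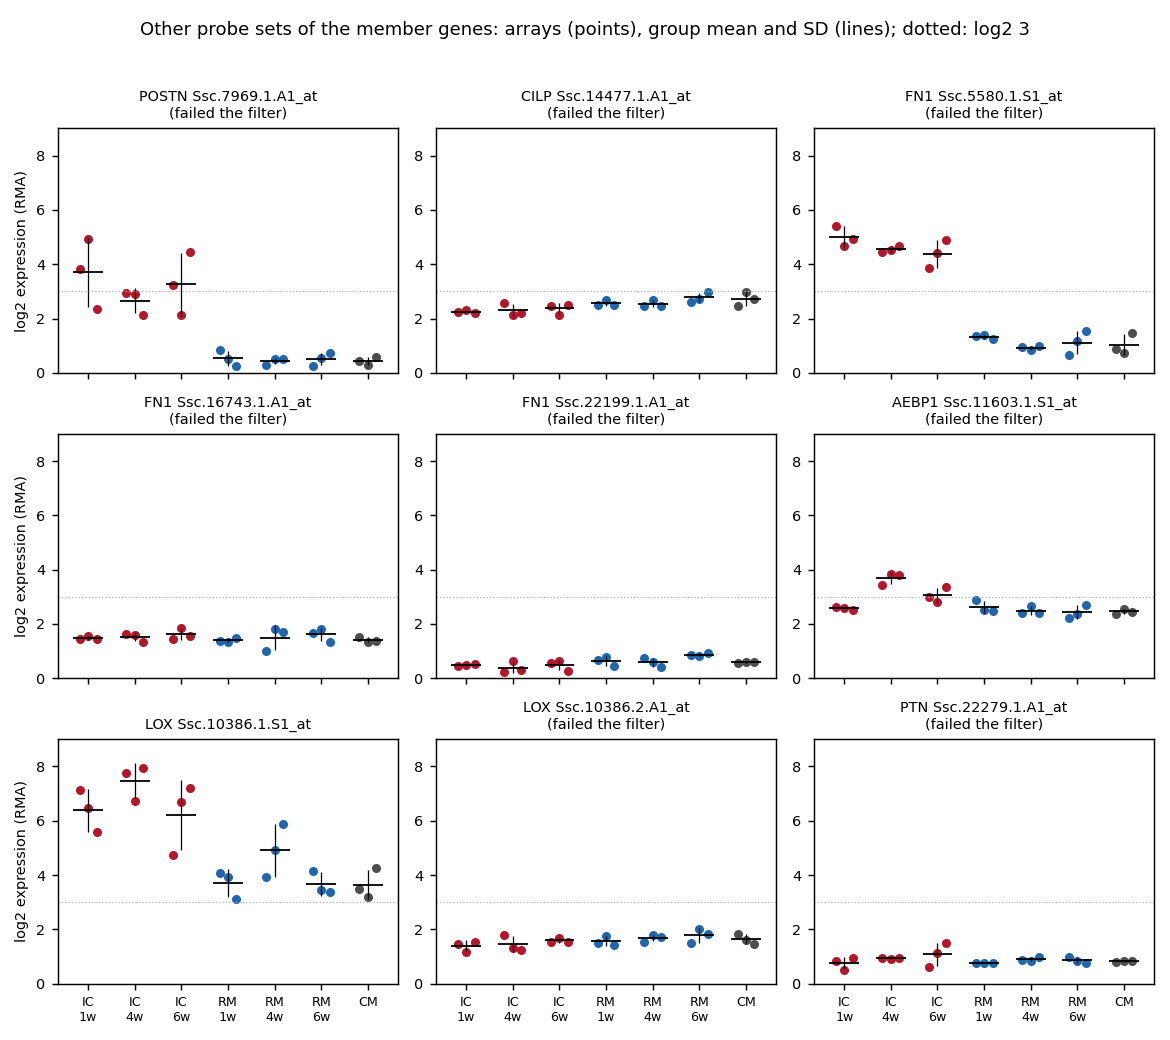
Log2 expression on every array (vertical axis) of the 9 probe sets that are not the brightest of their gene, by group, with lines for the mean and SD of 3 arrays. Scar arrays stand apart from all others for POSTN and 1 FN1 probe set, 1 LOX probe set has scar arrays above CM that overlap RM of other stages, the AEBP1 probe set exceeds 3 only in IC, and 5 probe sets never exceed 3.

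The scar also had higher expression of related genes. To set beside the counts below, 26%, 25.3% and 21% of all tested probe sets were called higher in IC over CM at the 3 stages. Of 11 other tested matricellular genes, 7 were called higher in IC at the earliest stage and 10 at each later one, with none lower and medians of 2.09 to 2.24. THBS3, a thrombospondin, had a log2 FC of 4.42, 3.59 and 3.19 at the 3 stages. The log2 FC was 3.01, 4.17 and 3.67 for FBLN1 (fibulin-1, a glycoprotein of elastic fibres and basement membranes), 2.75, 2.66 and 2.32 for MDK (midkine, the relative of pleiotrophin) and 2.49, 2.45 and 2.33 for SPARC (a collagen-binding matricellular protein). FBLN1, MFAP5, SPARCL1 and TNXB were called higher in IC at 4 weeks over 1 week, by 1.16, 1.64, 1.32 and 1.74. MFAP5, SPARCL1 and TNXB were named after their values were seen.

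Of 8 other tested genes for collagen crosslinking and processing, 7, 8 and 7 were higher in IC at the 3 stages and none was lower, with medians of 1.35, 1.39 and 1.05. LOXL1, the lysyl oxidase relative that acts on elastin, had the highest values, 5.02, 5.42 and 4.74. SERPINH1 (the collagen chaperone HSP47) had 2.04, 1.27 and 0.95, BMP1 (which cleaves procollagen and activates lysyl oxidase) 1.96, 1.65 and 1.38, and CRTAP (a subunit of the prolyl 3-hydroxylase complex) 1.42, 1.51 and 1.00. PCOLCE2, an enhancer of procollagen cleavage named after its values were seen, was not higher at 1 week (-0.49) and was 2.86 and 2.09 at 4 and 6 weeks, a difference of 3.35 between 4 weeks and 1 week (adjusted p = 3.49e-05).

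Of 8 tested lysyl oxidase substrates and partner proteins named by the platform, 7 were higher at each stage, with medians of 2.21, 2.46 and 2.17. Examples were BGN (biglycan) at 4.28, 4.55 and 4.21, COL5A1 at 3.25, 3.20 and 3.04, FBN1 (fibrillin-1) at 2.59, 2.82 and 2.84 and COL6A3 at 2.44, 2.82 and 2.56. The exception was COL3A1, at -0.46, 0.02 and 0.08, with means of 2.83, 3.31 and 3.37 in IC and 3.28 in CM, near the filter limit of 3. It was singled out after its values were seen. Once arrays were centred on their median, limma called it lower at 1 week (-0.54, adjusted p = 0.0468). The paper, by contrast, reports genes of collagen types I and III as upregulated in the infarct core at its earliest stage. A probe set this dim cannot decide whether COL3A1 rose in the scar, and probe sets named only by the authors' match were left out of this list.

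Receptors moved in both directions. Of 10 tested, 4, 6 and 4 were higher in IC and 2, 2 and 1 lower, with medians of 0.58, 0.67 and 0.39. Over all tested probe sets 26%, 25.3% and 21% were higher, and 28.2%, 29.1% and 26% were lower. SDC2 (syndecan-2) had a log2 FC of 1.62, 2.79 and 1.95, EGFR 1.49, 2.30 and 2.24 and ITGB1 (the integrin beta 1 chain) 0.98, 0.89 and 0.72. CD47, a receptor of thrombospondins, was higher at 1 week (0.87) and measured 0.20 and 0.17 at the later stages, where it was not called. Among the receptors that were lower was ITGA5, the chain of the fibronectin receptor, at -0.80, -1.44 and -1.36, named after its values were seen.

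Among 4 tested genes of TGF-beta ligands and their receptor, 4, 3 and 3 were higher in IC at the 3 stages, and 1 was lower at the last. TGFB3 had 4.22, 4.69 and 4.33, TGFBR1 2.30, 1.73 and 1.61 and TGFB2 1.58, 1.60 and 1.47. TGFB1 was 0.55 at 1 week (adjusted p = 0.0372) and -0.03 and -0.65 later, with the 6-week value called lower (0.0191). With arrays centred on their median the 1-week value was 0.46 and no longer called (0.0717). Among comparisons of RM with CM 0 genes of these 5 lists were called at any stage, beside 1.13%, 1.08% and 0.197% of all tested probe sets.

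The genes whose 6 log2 FC from CM (IC and RM at 3 stages) lay closest to those of each member were found by the root mean square difference among named tested probe sets. For THBS2 they were LOXL1 (0.36) and COL1A1 (0.45), for FN1 VCAN (0.20) and TGFB3 (0.23), for TNC CSRP2 (0.17) and MXRA5 (0.27) and for LOX PRRX1 (0.29) and C16orf45 (0.31). For CILP they were COL12A1 (0.45) and C1QTNF3 (0.47), for POSTN PRRX2 (0.48) and CCDC80 (0.49) and for SPP1 CCBL2 (0.40) and THBS2 (0.58). For AEBP1 they were THBS2 (0.47) and LOXL1 (0.55), and for PTN SPP1 (0.71) and FMOD (0.79). The nearest genes were thus farther from PTN than from any other member, and LOXL1 and THBS2 stood near more than 1 member.

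Cell type markers differed between the regions beside these genes. Of all tested probe sets, 26%, 25.3% and 21% were called higher in IC over CM at the 3 stages. Of 9 fibroblast markers 8 were higher in IC at each stage (medians 2.19, 2.71 and 2.27), with a mean of 8.30 to 8.95 in IC, 6.42 to 6.97 in RM and 6.30 to 6.86 in CM, and some of them (COL1A2, COL3A1, DCN) also stood among the lysyl oxidase substrates and partners. All 4 tested macrophage markers were higher in IC at each stage, with the mean of 6 on the array at 4.55 to 6.00 in IC, 3.63 to 4.21 in RM and 3.57 to 3.82 in CM, and 3 of 4 smooth muscle and myofibroblast markers were higher. Of 11 cardiomyocyte markers 6, 8 and 3 were lower in IC at the 3 stages and 1 was higher at 1 week, where 28.2%, 29.1% and 26% of all tested probe sets were lower. None of 5 T cell markers passed the filter. Without it 5, 1 and 1 were higher in IC, beside 17.4%, 17.4% and 14.5% of all 24123 probe sets. The mean of these T cell markers in IC was 3.61 to 4.62 at 1 week, 2.74 to 3.57 at 4 weeks and 2.10 to 3.98 at 6 weeks, against 2.08 to 2.28 in CM. In RM over CM 1 tested marker of these lists was called, a smooth muscle and myofibroblast marker at 4 weeks, beside 1.08% of all tested probe sets. The part of the cell composition in the members' values was not tested, and in bulk tissue more cells of a type and more RNA per cell cannot be told apart.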

How the data were processed

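The authors hybridized total RNA of 21 samples to Affymetrix porcine arrays and deposited log2 expression values after RMA normalization over all arrays. Array scans were not used here, and the deposited table names no genome build, so no coordinates are given. The values run from -0.0582 to 13.4. The 7 groups follow the labels, and the pig numbers in the labels pair IC with RM.

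Probe sets were named by the platform annotation (10099 with 1 symbol) or, where it gave none, by the authors' match to human genes (1055). The lists of related genes and the cell type markers used platform symbols only. They left out probe sets named by the authors' match, such as those of COL1A1, COL12A1 and FMOD. Annotation of this age can hold superseded symbols. A gene is represented by its probe set with the highest mean over 21 arrays. The members and gene lists were chosen with earlier results of these data known. The text names every member probe set, up to 4 called genes per list with the largest change in IC at 1 week, and 2 nearest genes per member, and it says where a name falls outside this rule.

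Tests used limma 3.58.1 (R 4.3.3): lmFit, contrasts and eBayes on 7 group means over 21 arrays (14 residual degrees of freedom) for comparisons with CM and between stages, and pig as a block over 18 arrays (6 residual degrees of freedom) for IC against RM and its change with stage. P-values were adjusted by Benjamini-Hochberg within each comparison over 12180 probe sets, or over 24123 with no filter, which gave the values of probe sets that failed it. The deviations of IC and RM of the same pig from their group means correlated at 0.0714 to 0.492 in the 9 pigs. With 3 arrays per group, the number of arrays limits the precision. P-values of the group fit rest on the spread between pigs within groups, with IC and RM arrays of a pig treated as independent. Those of the paired fit rest on the spread of IC minus RM between pigs. Simulated data were used to check calls of the group fit only, and the paired fit was not checked in this way. Alternatives covered the filter, the scaling, the variance model, the pairing, the arrays in the fit, single arrays left out and the choice of probe set. Tables were made with Python 3.11.15 and pandas 2.3.3.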

Additional observations from a re-analysis of the deposited data

Results flagged for a closer look

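Some member probe sets that the brightness filter left out were called in the fit of all 24123 probe sets, which is why they are given here. The TNC probe set had a log2 FC of IC over CM of 4.69 at 1 week, 3.86 at 4 weeks and 3.30 at 6 weeks, the dimmer POSTN probe set 3.27, 2.21 and 2.83, and the second FN1 probe set 3.97, 3.50 and 3.35. The dim AEBP1 probe set had 1.23 at 4 weeks and 0.59 at 6 weeks. For the same AEBP1 probe set the excess of IC over RM differed between stages by a test of that difference, by 1.25 at 4 weeks over 1 week (SE 0.18, adjusted p = 0.0273), with IC minus RM at 1.03, 1.16 and 1.38 in the pigs at 4 weeks and -0.28, 0.08 and 0.04 in those at 1 week. Of all 24123 probe sets 0.344% were called in that comparison. Groups of 3 arrays were too small for a test of single outlying arrays.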

How the results depend on the processing

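Over the filter, scaling, variance model, pairing, choice of arrays and single arrays or pigs left out, the tested member probe sets gave 2025 values. Of these, 2007 stayed on their side of the threshold, 15 lost a call and 3 gained 1. No value turned its direction with a call, and a change of sign with no call in either fit counted as unchanged. Without pig as a block, the 9 tested probe sets were still higher in IC than RM at each stage, so the replicate block changed no call there, and pig as a random block changed no call elsewhere. Centring the arrays on their median moved the median log2 FC of all tested probe sets in IC over CM to -0.15, -0.18 and -0.17 by stage, against -0.06, -0.06 and -0.08 as deposited. Scaling changed no direction of a called gene in the lists of related genes, a check chosen after seeing the data, but it changed some calls. With arrays centred on their median, 4 receptors were higher in IC at 4 weeks instead of 6. Receptors called lower were then 3 instead of 2 at 1 week and 2 instead of 1 at 6 weeks, and 7 crosslinking genes were higher at 4 weeks instead of 8. With another scaling, cyclic loess, 9 matricellular genes were higher at 1 week instead of 7, and 5 receptors instead of 4 at 1 and 6 weeks.

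With no filter the count of member probe sets called, of 18, was 13, 14 and 13 for IC over CM by stage, 12, 13 and 13 for IC over RM, 2 for IC at 4 weeks over 1 week, 1 for IC at 6 weeks over 4 weeks and 1 for the change of IC minus RM from 1 to 4 weeks, because more probe sets entered. With only the groups compared in the fit it was 0 for IC at 4 weeks and at 6 weeks over 1 week, with fewer arrays to estimate the spread. Leaving out 1 array, the count ran from 0 to 1 for RM over CM at 1 week, 0 to 2 at 4 weeks, and 0 to 1 for IC at 4 weeks and at 6 weeks over 1 week. With the filter it was 9 throughout for IC over CM and IC over RM.

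Single pigs moved some values of IC over RM that stayed called: SPP1 at 4 weeks was 4.17 without pig 22, PTN 5.90 without pig 22 and 4.58 without pig 18, LOX 2.44 at 4 weeks without pig 18 and 4.56 at 6 weeks without pig 2, and the dimmer LOX probe set 1.92 without pig 18, 3.52 without pig 2 and 1.91 without pig 5.

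The choice of probe set mattered most, and the cause was not tested. In IC over CM by stage, the dim CILP probe set gave -0.47, -0.41 and -0.34, the FN1 probe set Ssc.22199.1.A1_at -0.09, -0.19 and -0.10, and the dim LOX probe set -0.23, -0.17 and -0.03, and the dim PTN probe set gave -0.06 at 1 week. In IC over RM they gave -0.32, -0.24 and -0.40 for CILP, -0.16, -0.20 and -0.39 for FN1 and -0.16, -0.23 and -0.18 for LOX, with -0.01 for PTN and -0.06 for the dim AEBP1 probe set at 1 week and -0.00 for the FN1 probe set Ssc.16743.1.A1_at at 6 weeks. The dimmer probe sets that failed the filter gave 144 values to set beside the brightest of their gene. Of these, 109 counted as unchanged, 22 had the opposite sign with a call in either fit, 11 lost a call and 2 gained 1. Averaging the probe sets of a gene left 108 of 108 values on their side. In IC over CM and over RM such an average keeps part of the large change of the brightest probe set, so it says little about the dim ones.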
